A study of Homo sapiens with 6 samples.

Results

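PGK1 and GAPDH are the genes of 2 neighbouring enzymes of glycolysis, and their transcripts were measured in A549 cells with and without exposure to Al2O3 nanoparticles (Al2O3 NPs). They were 2 of the 20 genes whose probe carried a RefSeq accession among 58965 distinct probes. Each had 1 probe printed as 10 spots on each of the 6 arrays. Both were selected with their values in these groups already known, so their differences between the groups are given as descriptions without a test. A549 is an established line of human lung adenocarcinoma epithelium. Total RNA of 3 control samples, labelled as wild type A549, and of 3 samples labelled as treated with Al2O3 nanoparticles was hybridised to one-colour Agilent arrays. The labels gave no concentration, exposure time or vehicle, and no genetic alteration in either group. They did not say whether the arrays of a group came from separate cultures, so the spread between them may be technical.

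Glycolysis breaks glucose down to pyruvate in the cytosol and yields ATP without oxygen. GAPDH, glyceraldehyde phosphate dehydrogenase, oxidises glyceraldehyde phosphate to bisphosphoglycerate and reduces NAD. PGK1, phosphoglycerate kinase, catalyses the next step and passes a phosphate of that product to ADP, which makes the first ATP gained in the pathway. Transcripts of both are widely used as internal references, and both genes are known targets of the hypoxia-inducible factors. In the RefSeq annotation of GRCh38.p14, PGK1 covers chrX:78104248-78129295, a span of 25048 bp with 1 listed transcript, and GAPDH covers chr12:6534517-6538371, a span of 3855 bp with 6. The same annotation held 2 pseudogenes named after PGK1 and 65 named after GAPDH. Probe sequences were not used here, so the exon each probe lies in was not determined, and hybridisation of transcripts from these copies was not tested.

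The 250 bases before the PGK1 start site are shown because PGK1 had the larger difference between the groups. They lie at chrX:78103998-78104247 on the plus strand of GRCh38.p14, as given by RefSeq. Capitals mark each match to ACGTG or GCGTG on either strand, the core letters of the hypoxia response element.

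PGK1: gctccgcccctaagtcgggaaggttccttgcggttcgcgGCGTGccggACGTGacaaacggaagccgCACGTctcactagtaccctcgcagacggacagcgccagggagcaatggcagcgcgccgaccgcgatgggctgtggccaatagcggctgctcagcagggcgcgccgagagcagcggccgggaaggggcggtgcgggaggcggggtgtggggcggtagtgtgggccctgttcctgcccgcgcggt

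The window held 3 such matches, at 211, 202 and 183 bases before the start, and 43.2% of 35116 promoter windows of this length held at least 1. It also held 3 matches to the GC box GGGCGG on either strand, found in 42.6% of the windows, and no TATAAA, found in 10.7%. Its GC content was 71.2%, higher than that of 81.9% of the windows, whose median was 58%. These matches are letters in the sequence and not measured binding. The GAPDH window of the same collection began 497 bases after the gene's annotated start and is not shown.

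The slides were not balanced between the groups. One slide carried all 3 controls together with replicate 1 of the treated cells, and the other slide carried treated replicates 2 and 3 alone. Between 31158 and 34384 probes were well above background on an array, and no spot was saturated. The number of arrays limits the precision. Values are log2 of the processed intensity minus the 75th percentile of the array, averaged over the 10 spots of a gene after spots flagged as outliers were left out. Because a probe's brightness depends on its sequence, the distance between the levels of PGK1 and GAPDH is not read as their relative abundance, and only its change between arrays is described.

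PGK1 was higher in Al2O3 NPs-treated A549 cells than in control cells on every array. The log2 value of PGK1 was 2.47, 2.51 and 2.50 on control replicates 1, 2 and 3, and 2.81, 2.90 and 2.80 on Al2O3 NPs replicates 1, 2 and 3. The groups did not overlap, and the lowest treated array lay 0.292 above the highest control. The mean was 2.50 ± 0.0204 (SD, n = 3) in control cells and 2.84 ± 0.0546 (SD, n = 3) in treated cells. The difference on the log2 scale was 0.343 (SE 0.0337), or 26.8% higher, against a pooled SD within groups of 0.0412. In processed intensity, the geometric means were 1248, 1352 and 1256 for the controls and 1739, 1742 and 1565 for the treated arrays, so the groups stood apart before scaling as well. All 10 PGK1 spots were well above background on every array and none was flagged.

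The difference of GAPDH between the groups was small and its size against the spread depended on the scaling of the arrays. The log2 value of GAPDH was 10.34, 10.30 and 10.24 on control replicates 1, 2 and 3, and 10.25, 10.40 and 10.41 on Al2O3 NPs replicates 1, 2 and 3. Treated replicates 2 and 3 lay above all controls and replicate 1 lay among them, so the groups overlapped on this scale. In processed intensity before scaling, the geometric means were 290618, 298628 and 268492 for the controls and 301529, 314208 and 304980 for the treated arrays. These did not overlap, so standing apart before scaling was not particular to PGK1. The mean log2 value of GAPDH was 10.29 ± 0.0495 (SD, n = 3) in control cells and 10.35 ± 0.0915 (SD, n = 3) in treated cells. The log2 difference was 0.0591 (SE 0.0601), or 4.18% higher, below the pooled SD of 0.0736. Under 5 of 9 other scalings or summaries of the spots it was above the pooled SD of that setting, and under 2 of these the GAPDH groups did not overlap. Those 2 were scaling to the other accession genes (0.112, pooled SD 0.0405) and normexp, a model-based background correction, with quantile normalization (0.0345, pooled SD 0.0088). Quantile normalization without and with normexp gave GAPDH a pooled SD of 0.0170 and 0.0088, far below the reported 0.0736. For PGK1 these were 0.0346 and 0.0374, beside the reported 0.0412. PGK1 exceeded its pooled SD without overlap under all 9. With the slide as a block, which compares treated replicate 1 with the controls of its slide, the GAPDH difference had the opposite sign (-0.0462). The same comparison within that slide gave 0.312 for PGK1, and treated replicates 2 and 3 lay 0.406 and 0.310 above the control mean.

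**Figure D1:**
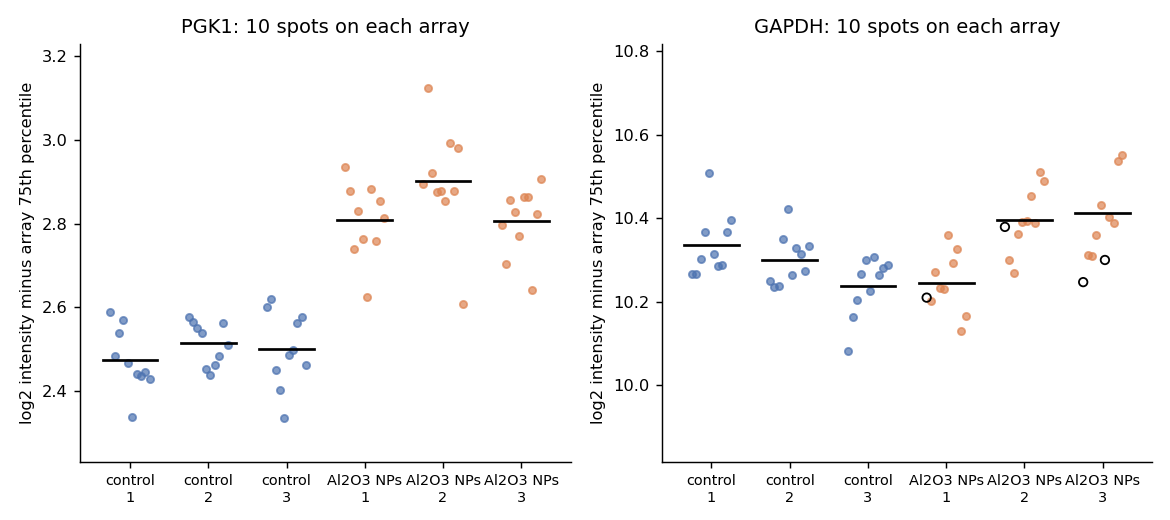
Log2 intensity relative to the 75th percentile of the array for each spot of PGK1 and GAPDH on the 6 arrays, with a horizontal line at the mean of the unflagged spots of each array. Blue points are control and orange points treated arrays, open circles are spots flagged as outliers, and both panels span 1 log2 unit. The PGK1 means of the treated arrays (2.80 to 2.90) all sit above those of the controls (2.47 to 2.51), while the GAPDH means of the groups overlap.

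As both genes were read on the same array, their log2 difference cannot be altered by any scaling of a whole array. PGK1 minus GAPDH was -7.86, -7.79 and -7.74 in control cells and -7.44, -7.49 and -7.61 in treated cells. PGK1 was thus higher relative to GAPDH on each treated array than on any control. The change in this log2 difference was 0.284 (SE 0.0611), a 1.22-fold change of their ratio, and the nearest arrays of the groups were 0.133 apart. Under normexp the change was 0.187.

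For comparison, 32806 probes had a value on all 6 arrays and were well above background on 3 or more. The 3 treated arrays lay above all controls in 16.6% of them and below all controls in 23.1%. Of the 2 glycolytic genes, PGK1 was in the first class and GAPDH in neither. Since the genes were chosen on this contrast, nothing is read from that count. Of these probes, 10.4% were higher in treated cells by at least as much as PGK1, and 23.4% differed by at least its size in either direction. A difference of at least the size of that of GAPDH was found in 82.4%. The median difference was -0.0563, so PGK1 lay further from the median probe than from 0. The spread of PGK1 within groups was small for the array: 3.76% of the probes had a smaller pooled SD, and 20.9% had one smaller than that of GAPDH. Nearly all other probes had a single spot, and their median pooled SD was 0.124.

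**Figure D2:**
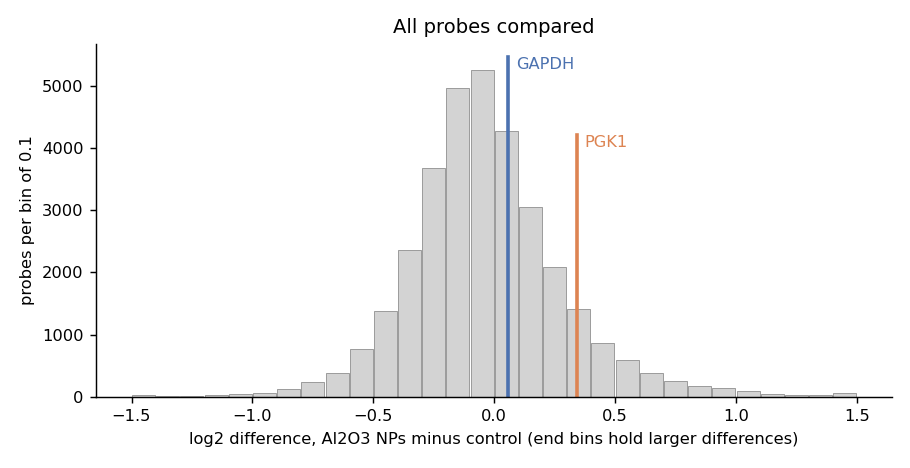
Difference of log2 intensity, Al2O3 NPs minus control, over the same 32806 probes, as the number of probes in each bin of 0.1, with larger differences gathered in the end bins and vertical lines at PGK1 (0.343) and GAPDH (0.0591). GAPDH lies in the central mass of the probes and PGK1 in its upper shoulder, with 10.4% of the probes at or beyond it.

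The 10 spots of a gene lie at separate places on the array and occupy the same places on every array. PGK1 was higher in treated cells at 10 of 10 places, by 0.265 to 0.447 with a median of 0.344, and the groups overlapped at none. Spots share the RNA of their array and are not replicates of the exposure. Both genes were chosen on this contrast, so nothing is read from the counts of places. GAPDH was higher at 7 of the 9 places that had a value in both groups, and its differences ran from -0.0596 to 0.108. At the 8 places with a value on all 6 arrays, the GAPDH groups were free of overlap at 1. The median SD within groups at a place was 0.077 for PGK1 and 0.0606 for GAPDH.

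**Figure D3:**
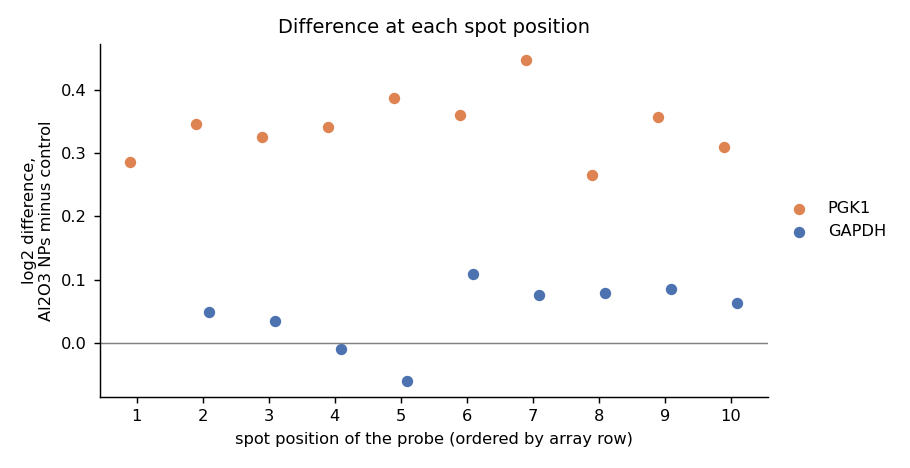
Difference of log2 intensity, Al2O3 NPs minus control, at each of the 10 places of the PGK1 and GAPDH spots, 1 point per gene and place, without error bars. Every PGK1 place lies between 0.265 and 0.447, while the GAPDH places lie on both sides of 0 and place 1 has no value.

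Outlier flags touched GAPDH only in treated cells. No GAPDH spot was flagged on a control array, whereas 1, 1 and 2 of the 10 were flagged on Al2O3 NPs replicates 1, 2 and 3. The spot at place 1 was flagged on all 3 treated arrays and on no control. Its log2 values there were 10.21, 10.38 and 10.25 on treated replicates 1, 2 and 3. The first 2 of these lay within the range of the unflagged GAPDH spots of their array, and that of replicate 3 lay below its lowest, 10.31. More flags on treated arrays were not particular to GAPDH. Over all gene probes, 90 to 148 spots were flagged on treated arrays and 36 to 73 on controls. Over all genes with an accession, GAPDH included, 15, 13 and 11 spots were flagged on Al2O3 NPs replicates 1, 2 and 3. The counts were 6, 6 and 2 on control replicates 1, 2 and 3. Of the variation between single spots of PGK1, 80.7% lay between arrays, 5.75% between places and 13.6% in neither. For GAPDH, with flagged spots kept, the shares were 41.7%, 24.9% and 33.3%. The share between arrays includes the difference between the groups. Deviations of a place from the mean of the gene were of like size, from -0.0665 to 0.0656 for PGK1 and from -0.0769 to 0.0649 for GAPDH.

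The 16 other genes with an accession that are reported here differed less between the groups than PGK1. Each was printed in the same way as the glycolytic genes, and their differences ran from -0.182 to 0.0557 with a median of -0.045. Both glycolytic genes lay above this range under the reported processing, GAPDH by little. GAPDH place 1, left out on treated arrays only, had the lowest control mean of its places (10.20). With outlier spots kept the GAPDH difference was 0.0481, and with the median of the spots 0.0499. The 16 are not given under these settings, so GAPDH is placed above them for the reported processing only. In none of the 16 were all treated arrays above all controls, and in 3 (18.8%) all were below, beside 16.6% and 23.1% over all probes compared. These were ODC1, GRM4 and EIF3D, which are named after their values were seen. GRM4 was dim, with mean log2 values of -2.49 in control and -2.66 in treated cells. The control means of ODC1 and EIF3D were 8.45 and 9.53. RPL10 was also dim, with a control mean of 0.478. Apart from GRM4 and RPL10, the control means of the 16 ran from 7.998 (MTX1) to 10.66 (PFN1). GAPDH (10.29) lay in that range and PGK1 (2.50) did not. None of the 16 had a brightness near that of PGK1, so they are not matched to it in this respect. The ribosomal protein genes RPL10, RPLP1 and RPS18 ranged from -0.0404 to 0.0124, and the nuclear-encoded mitochondrial genes COX4I1 and MTX1 from -0.0562 to -0.0315. ACTB, the cytoskeletal actin often used as a reference beside GAPDH, differed by 0.0271. Pooled SDs of the 16 were between 0.0408 and 0.0755, so that of PGK1 (0.0412) was near the lower end and that of GAPDH (0.0736) near the upper.

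**Figure D4:**
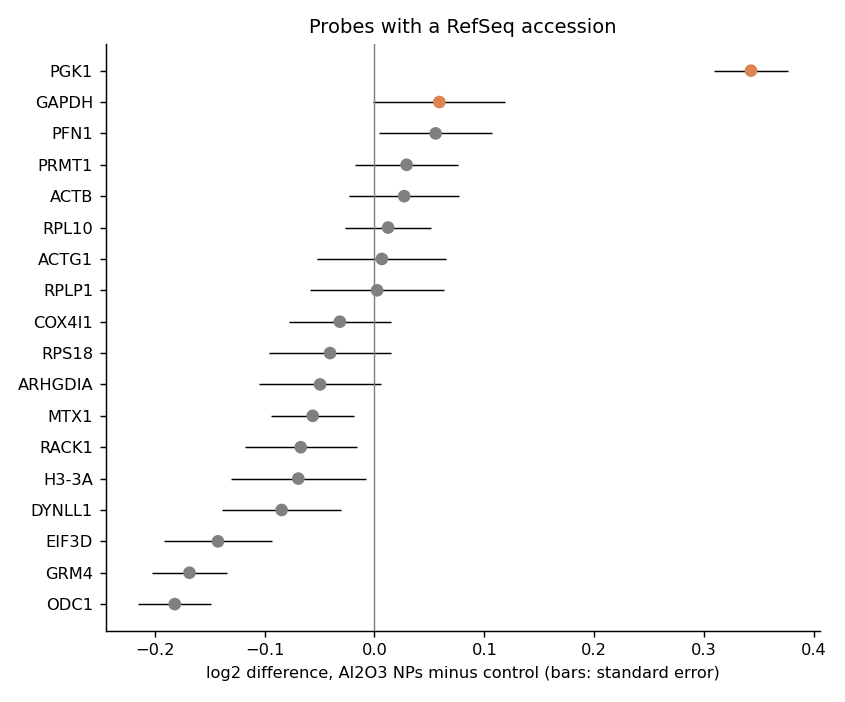
Difference of log2 intensity, Al2O3 NPs minus control, for 18 genes whose probe carries a RefSeq accession, with bars of 1 standard error (3 arrays per group). PGK1 lies at 0.343, GAPDH at 0.0591 and the 16 other genes between -0.182 and 0.0557.

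The choice of reference transcript changed the size of the PGK1 difference. A difference against a reference is the gene's own difference minus that of the reference. Under the reported processing both glycolytic genes lay above the range of the 16. A higher value against each was thus fixed by the differences already given. Measured within each array against each of the 16 genes in turn, PGK1 was higher in treated cells by 0.287 to 0.524 with a median of 0.388, and the groups did not overlap against any of them. GAPDH was higher against each of the 16 as well, by 0.0034 to 0.241 with a median of 0.104, and its groups did not overlap against 11. The references share the arrays and are not independent of each other. The share of other probes without overlap against them was not computed, so nothing is read from these counts.

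The profiles over the 6 arrays were compared by the root mean square difference after each was centred on its own mean. Among the 16 genes, GAPDH was nearest to PFN1, the actin-binding protein profilin (0.0157), followed by the cytoplasmic actins ACTG1 (0.0343) and ACTB (0.0345). PGK1 had no profile as near, and its nearest were PFN1 (0.154), PRMT1, an arginine methyltransferase (0.163), and ACTB (0.163). The profiles hold the difference between the groups with which PGK1 was chosen. Its difference was also smallest against these 3 (0.287, 0.313 and 0.316), so nothing further is read from its distances. The distance between PGK1 and GAPDH was 0.154. The low value of GAPDH on Al2O3 NPs replicate 1, relative to the 75th percentile, was shared by most of the 16. On that scale 15 of the 16 other genes were also lower on that array than on treated replicates 2 and 3. The share over all probes is not given, so the count speaks for these genes only. That array had the highest 75th percentile (248 intensity units, 222 to 237 on the others) and was the only treated array on its slide. The part of either in the low values was not tested. For PGK1, replicate 1 (2.81) lay between replicates 3 (2.80) and 2 (2.90).

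The local background is a separate measurement of each spot, although it is subtracted to give the processed intensity, and it was tested between the groups. With 3 arrays against 3, the exact two-sided permutation test cannot give a p below 0.1, so no test could pass the 0.05 threshold. The local background around the PGK1 spots, as the geometric mean over 10 spots, was 29.5, 29.9 and 30.7 intensity units in controls and 32.5, 30.8 and 30.8 in treated samples. It was higher around PGK1 on all treated arrays, by 0.0625 on the log2 scale (exact permutation p = 0.1, adjusted p = 0.4 over 4 tests, n = 3 per group), and by 0.0357 without Al2O3 NPs replicate 1. The mean background difference around PGK1 was 1.34 intensity units, beside a difference in PGK1 intensity of 397 units. The nearest arrays of the groups were control replicate 3 (30.68) and Al2O3 NPs replicate 2 (30.76). Over the spots of all gene probes, the median background was 30, 31 and 31 on controls and 33, 30 and 31 on treated arrays. Those medians overlapped between the groups. Around the GAPDH spots the background differed by 0.0134 (exact permutation p = 0.9, adjusted p = 0.9, n = 3 per group). The SD over the spots comes from the same intensities as the levels and is given as a description. It averaged 0.0728 on control and 0.101 on treated arrays for PGK1, a difference of 0.028 that was 0.0126 without Al2O3 NPs replicate 2 and 0.0174 without control replicate 2. For GAPDH it averaged 0.069 and 0.0824. The part of these in the differences of the genes was not tested.

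**Figure D5:**
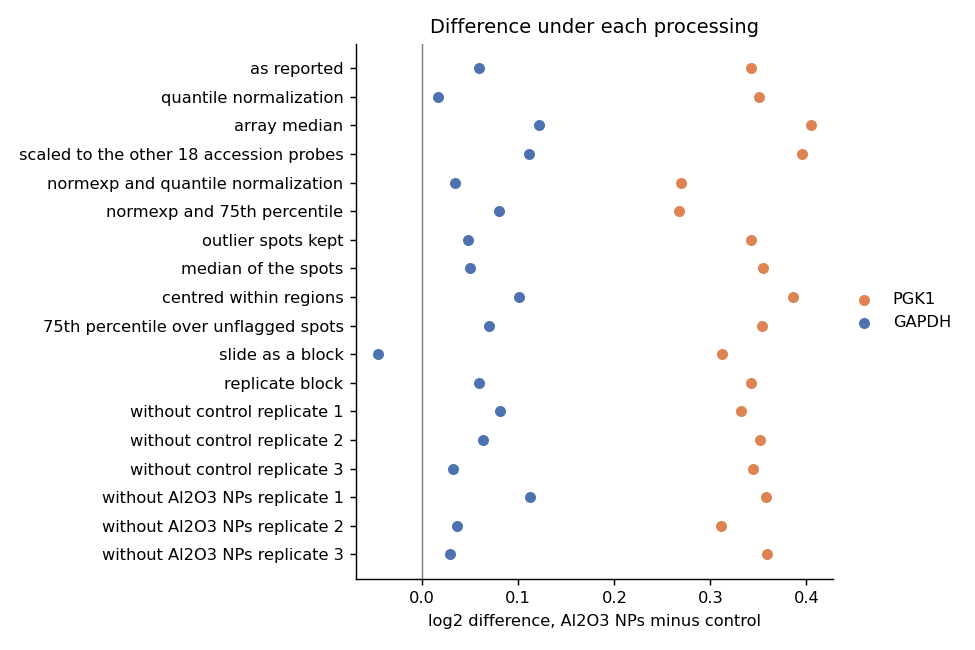
Difference of log2 intensity, Al2O3 NPs minus control, of PGK1 and GAPDH under the main processing and each alternative, 1 point per gene and setting. PGK1 stays between 0.267 and 0.405, and GAPDH between -0.0462 and 0.121 with 1 alternative below 0.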

How the data were processed

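The authors deposited, for each of the 6 arrays, the processed spot intensity, local background, position and outlier flags from Feature Extraction 11.0.1.1, for a design built on hg19, with background subtracted within the array and no scaling between arrays. Groups were taken from the labels, with 1 array per replicate. The labels list limma, without a version. They give Cy3 as the dye, whereas their labelling protocol describes a miRNA kit.

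Log2 intensity minus the 75th percentile of the gene probes of the array was used, with control spots and 60 negative control probes left out. Outlier spots were left out of the averages. The members and lists were chosen with earlier results of these data known. PGK1 and GAPDH were named always, with ACTB and, for each, the 3 reported accession probes of nearest profile, and other genes are given by ranges and counts, apart from the members of 2 gene families and 3 genes without overlap, named after their values were seen. Accessions of 20 of 20 probes were matched without version to RefSeq symbols of GRCh38.p14, of which 2 are not reported here. The other probes carry a manufacturer's number that was not paired with genes here, so a planned list of glycolysis genes and cell type markers was not analysed here, and the cell type was not checked. A deposited table of the authors' processed log2 values was not used.

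Local background was tested by exact permutation, with Benjamini-Hochberg adjustment over 4 tests that included the spot spread, whose p-values are not given. The procedure that counts probes without overlap was checked on data made with known answers, which says nothing about the count reported. Python 3.11.15, pandas 2.3.3, R 4.3.3 and limma 3.58.1 (normexp with offset 50, on median spot signals, and quantile normalization) were used. Alternatives covered scaling, background correction, outlier spots, the spot summary, 96 regions of the array, slide, replicate number and each array left out. The 75th percentile over unflagged spots, and leaving out arrays for the background and spread, were added after the data were seen. Same-numbered arrays showed correlations of deviations from the group means of -0.0214, 0.0429 and 0.0188, so the numbers were not taken as pairs.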

Additional observations from a re-analysis of the deposited data

How the results depend on the processing

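PGK1 was higher in Al2O3 NPs-treated cells under all 17 alternatives, by 0.267 to 0.405, and 12 of them lay within 1 SD of the reported 0.343. The other 5 were scaling to the array median (0.405) or to the other 18 accession genes (0.395), centring within regions (0.386), and normexp with quantile normalization (0.270) or with the 75th percentile (0.267). Leaving out each array in turn gave PGK1 values of 0.311 to 0.359. GAPDH was within 1 pooled SD (0.0736, more than the difference itself) of its reported value under 16 of 17 alternatives. The exception was the slide as a block, which turned its sign (-0.0462). Under 5 of the 9 with a pooled SD of their own the GAPDH difference exceeded it, unlike the reported value. The 16 ran from 0.0162 with quantile normalization to 0.121 with scaling to the array median, and leaving out each array gave 0.0288 to 0.112. PGK1 minus GAPDH moved by more than 1 SD under normexp (0.187) and with the slide as a block (0.359), and leaving out each array gave 0.246 to 0.330. The cause of these shifts was not tested. The fit with a replicate block gave the same values as without it (0.343 for PGK1, 0.0591 for GAPDH and 0.284 for their difference), since the numbers are balanced over the groups. The background difference around GAPDH ranged from -0.0262 to 0.0374 as each array was left out, and was negative without Al2O3 NPs replicate 1. That around PGK1 ranged from 0.0357 to 0.0783, and the difference in spot spread from 0.0126 to 0.0377 for PGK1 and from 0.0085 to 0.0173 for GAPDH. Of the probes without overlap, 41.8% had the treated arrays above the controls, 49.2% after quantile normalization and 57.5% with scaling to the array median, and the count of such probes was 13030, with 12179 to 15036 under the alternatives. Alternatives for the glycolysis list were not run.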
